A study of Sus scrofa with 24 samples.

Results

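The TOB, BTG and SERTAD genes encode small regulators that restrain or tune cell division. Their 8 members were taken by symbol from the pig gene counts of 24 bronchial epithelial cultures: TOB1, TOB2, BTG1, BTG2, BTG3, SERTAD1, SERTAD2 and SERTAD3. Of 25880 pig genes in the table, 14857 carried a symbol through their identifier, and 7 of the 8 members were among them. BTG2 had no row under its listed identifier; the row at its RefSeq position is given below as BTG2, named by position, and is not counted among the 7. The group of genes was selected on its values with SB203580 plus flagellin against PBS at 2 h, so that comparison, and those that share its libraries, are given as a description. All 8 rows passed the filter on low counts that left 14172 genes for testing.

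The cultures were wild-type cells from the bronchi of 1-month-old pigs, grown on collagen at an air-liquid interface. There were 6 groups of 4 libraries: SB203580 plus flagellin, flagellin, and PBS, each at 24 h and at 2 h. SB203580, which blocks p38 MAP kinases, was given at 20 µM for 1 h beforehand; the flagellin and PBS groups had its solvent, DMSO, for that hour. Flagellin, the bacterial flagellum protein that TLR5 recognises, was used at 100 ng/ml. No group given SB203580 without flagellin was analysed here, so SB203580 is always seen together with flagellin. Nothing in the labels tells whether a replicate was its own animal or culture, so p-values here reflect only how far these libraries lie apart, and part of that may be technical.

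Libraries held 26345945 to 36267289 counts in pig genes. Epithelial genes were abundant, with CDH1 at 1180 to 2185 CPM and EPCAM at 242.9 to 401.4 CPM (counts scaled to a common library size with TMM factors). Genes of the ciliated cells that form at an air-liquid interface were low, with FOXJ1 at 1.53 to 22.8 CPM and TPPP3 at 13.0 to 40.7 CPM. Those of the secretory cells that form there ranged from low to abundant. SCGB1A1 was at 0 to 14.8 CPM, PIGR at 87.3 to 1181 CPM and WFDC2 at 328.4 to 1501 CPM. Of the immune cell genes, PTPRC and CD3E stayed at 0 to 0.113 CPM and at 0. CD3D, ITGAM and CSF1R reached at most 0.0313, 0.602 and 2.71 CPM. CD79A was at 1.15 to 4.23 CPM, CD68 at 5.36 to 28.4 CPM and CD14 at 6.30 to 118.6 CPM. Replicates 1 and 2 on one side and 3 and 4 on the other formed separate sets in every group, and 5 libraries of replicates 1 and 2 stood apart from the other 7 of that set: replicate 1 of SB203580 plus flagellin at 2 h, replicates 1 and 2 of it at 24 h, replicate 2 of flagellin at 24 h and replicate 2 of PBS at 2 h. These 5 were picked after the data had been seen, as low in secretory markers, so their gap in those markers only describes the choice. Their mean log2 CPM over 8 secretory markers was 4.21 to 5.61, against 6.57 to 7.24 in the 7. Over 11 ciliated markers it was -0.15 to 0.66, against 1.396 to 2.149.

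TOB and BTG proteins share an N-terminal domain that, in human and mouse, binds CNOT7 and CNOT8, the deadenylases of the CCR4-NOT complex, which shorten the poly(A) tails of mRNAs. TOB1 and TOB2 also bind the poly(A)-binding protein and so bring the deadenylase to mRNAs; TOB1 additionally binds SMAD proteins in mouse. BTG1 and BTG2 bind the arginine methyltransferase PRMT1 and are known as early response and quiescence genes. SERTAD proteins share the SERTA domain and work in the nucleus: human SERTAD1 binds the G1 kinase CDK4, SERTAD2 acts on E2F-dependent transcription, and SERTAD3 binds the replication protein RPA2.

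By the coordinates in the deposited table, whose pig assembly is not given in the sources used here, TOB1 (ENSSSCG00000040773) lay on chromosome 12 from 27115824 to 27119928 and TOB2 (ENSSSCG00000037958) on chromosome 5 from 7086651 to 7098637. BTG1 (ENSSSCG00000035790) was on chromosome 5 from 90815512 to 90820105, BTG3 (ENSSSCG00000012014) on chromosome 13 from 182209775 to 182228630, and the row named BTG2 by position (ENSSSCG00000028322) on chromosome 9 from 64031841 to 64038694. SERTAD2 (ENSSSCG00000037002) was on chromosome 3 from 77192943 to 77317328. SERTAD1 (ENSSSCG00000026931), on chromosome 6 from 48698849 to 48702400, and SERTAD3 (ENSSSCG00000025448), from 48709064 to 48713338, were neighbours on the minus strand, 6664 bases apart. Counts were summed over the exons of each gene, and 0 annotated genes overlapped any member.

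Per length of counted exon, TOB1 was the most abundant member and SERTAD2 the least. TOB1 averaged 101.7 ± 16.9 FPKM (CPM per kilobase of exon; SD, n = 24) and BTG1 88.7 ± 21.7 FPKM. BTG3 followed at 57.1 ± 9.36 FPKM and SERTAD1 at 32.3 ± 5.34 FPKM. These 4 genes were above 96.8%, 96.2%, 93.6% and 87.3% of the genes tested. BTG2 (named by position) stood at 27.95 ± 18.3 FPKM, with the widest spread for its level, SERTAD3 at 24.5 ± 4.58, TOB2 at 24.1 ± 5.39 and SERTAD2 at 15.0 ± 3.24 FPKM. Neighbouring means in this order differed by less than the larger of their SDs for TOB1 and BTG1, SERTAD1 and BTG2, BTG2 and SERTAD3, and SERTAD3 and TOB2. The steps between BTG1 and BTG3, BTG3 and SERTAD1, and TOB2 and SERTAD2 exceeded it.

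**Figure D1:**
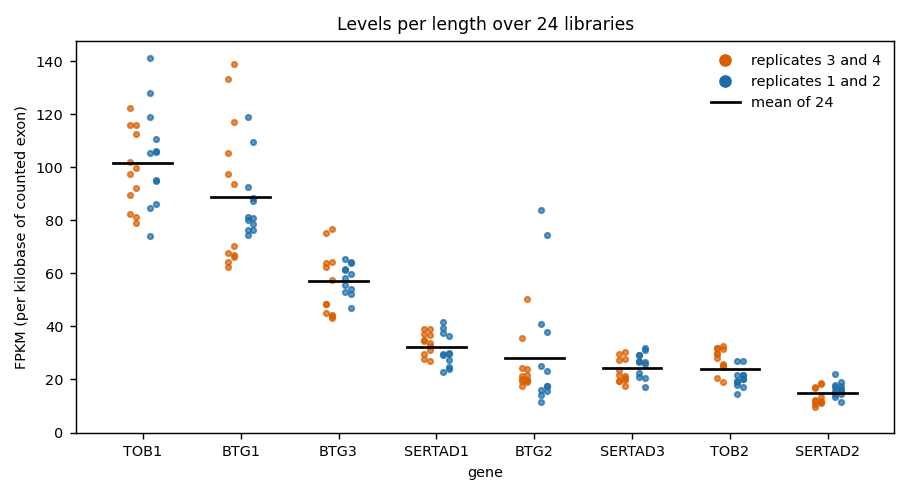
Level per kilobase of counted exon (FPKM) of the 8 genes in each of 24 libraries, ordered by mean; orange points are replicates 3 and 4, blue points replicates 1 and 2, and the bar is the mean of 24. TOB1 and BTG1 lead with means of 101.7 and 88.7 FPKM, and BTG2, named by position, has a few libraries far above its mean.

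With SB203580 plus flagellin at 2 h, TOB1 and SERTAD3 were lower than with PBS, at 0.693 and 0.667 times its level, and SERTAD2 was higher, at 1.42 times. By edgeR's quasi-likelihood test, TOB1 and SERTAD3 were called lower, 2 of the 7 members, where 0.183% of all genes tested were called in either direction (26 genes, 19 higher and 7 lower; 114 genes with the replicate number as a block). The members were chosen on this comparison, so nothing is read from that count. Their median log2 fold change was -0.35, and that of all genes tested was 0.01.

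TOB1 had 189.3, 162.8, 178.6 and 181.2 CPM in replicates 1 to 4 of SB203580 plus flagellin at 2 h, 242.9, 260.7, 254.4 and 254.9 CPM with flagellin, and 231.9, 280.7, 247.0 and 268.2 CPM with PBS. Every SB203580 library lay under every library of both other groups, which overlapped each other. The log2 fold change was -0.53 (SE 0.106) against PBS and -0.51 (SE 0.106) against flagellin, and flagellin differed from PBS by -0.02 (SE 0.106). The paralogue TOB2 had 84.9, 71.2, 93.9 and 101.7 CPM with SB203580 plus flagellin, 100.1, 95.5, 124.7 and 138.1 CPM with flagellin, and 99.7, 89.0, 127.3 and 148.4 CPM with PBS. Each SB203580 library was under the library of the same number in both other groups, but the groups overlapped, since replicates 3 and 4 were above 1 and 2 throughout. Its log2 fold change was -0.40 (SE 0.192) against PBS and -0.38 (SE 0.192) against flagellin.

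SERTAD3 had 29.7, 39.0, 34.9 and 33.6 CPM with SB203580 plus flagellin at 2 h, 55.3, 46.9, 52.7 and 47.8 CPM with flagellin, and 54.5, 50.9, 48.3 and 51.9 CPM with PBS. As for TOB1, the SB203580 libraries lay under all others and the flagellin and PBS libraries overlapped. The log2 fold change was -0.58 (SE 0.111) against PBS, -0.56 (SE 0.111) against flagellin, and -0.02 (SE 0.110) for flagellin against PBS. Its chromosomal neighbour SERTAD1 had 47.3, 36.0, 53.5 and 43.8 CPM with SB203580 plus flagellin, 57.7, 59.3, 62.1 and 55.3 CPM with flagellin, and 43.5, 66.2, 58.2 and 61.8 CPM with PBS. The SB203580 libraries of SERTAD1 were all under the flagellin libraries, at a log2 fold change of -0.38 (SE 0.142), but overlapped PBS, whose replicate 1 was as low, at -0.35 (SE 0.142).

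SERTAD2 stood higher in both groups given flagellin than with PBS. It had 90.5, 100.8, 106.9 and 99.8 CPM with SB203580 plus flagellin at 2 h, 102.5, 105.5, 109.7 and 98.9 CPM with flagellin, and 67.9, 78.5, 77.4 and 55.7 CPM with PBS. Every library of both flagellin-treated groups was above every PBS library. The log2 fold change against PBS was 0.51 (SE 0.189) with SB203580 plus flagellin and 0.58 (SE 0.189) with flagellin alone; the groups with and without SB203580 differed by -0.07 (SE 0.188). SERTAD2 was not called against PBS by edgeR or DESeq2 in either comparison. Nor was it called with the replicate number as a block, in replicates 1 and 2 alone, or without any 1 library. It was called by edgeR in both comparisons when the library set was fitted at each time (log2 fold changes 0.51 and 0.58, SE 0.116 each). The same held in replicates 3 and 4 alone (0.65 and 0.66). Both comparisons use the same PBS libraries, which also served to choose the members, so nothing is read from these calls.

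BTG2, named by position, had the widest range of the members at 2 h. It had 163.5, 177.7, 82.3 and 105.8 CPM with SB203580 plus flagellin, 322.3, 362.8, 217.8 and 153.9 CPM with flagellin, and 101.1, 60.7, 85.4 and 92.8 CPM with PBS. All flagellin libraries were above all PBS libraries, at 3.11 times their level on the fitted scale (log2 fold change 1.64, SE 0.269), and this row was among the genes called. With SB203580 it was lower than with flagellin in each of the 4 numbered pairs (log2 fold change -0.998, SE 0.265), with overlap between the groups, and it stood 0.64 (SE 0.264) above PBS, a value of 0.09 in replicates 3 and 4 alone and of 1.07 in replicates 1 and 2 alone.

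BTG1 and BTG3 overlapped between all 3 treatments at 2 h. BTG1 had 321.7, 295.2, 339.7 and 354.4 CPM with SB203580 plus flagellin, 316.4, 335.6, 504.5 and 483.3 CPM with flagellin, and 293.9, 291.4, 424.9 and 382.2 CPM with PBS. Flagellin libraries were above the PBS libraries of the same number in 4 of 4 pairs (log2 fold change 0.24, SE 0.204), and the value with SB203580 plus flagellin against flagellin was -0.32 (SE 0.204). BTG3 had 100.6, 114.2, 138.2 and 134.0 CPM with SB203580 plus flagellin, 116.0, 120.0, 164.6 and 161.7 CPM with flagellin, and 112.5, 132.7, 123.9 and 137.1 CPM with PBS. Its SB203580 libraries were under the flagellin libraries of the same number in 4 of 4 pairs, at -0.21 (SE 0.165), and its difference from PBS was -0.06 (SE 0.165).

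**Figure D2:**
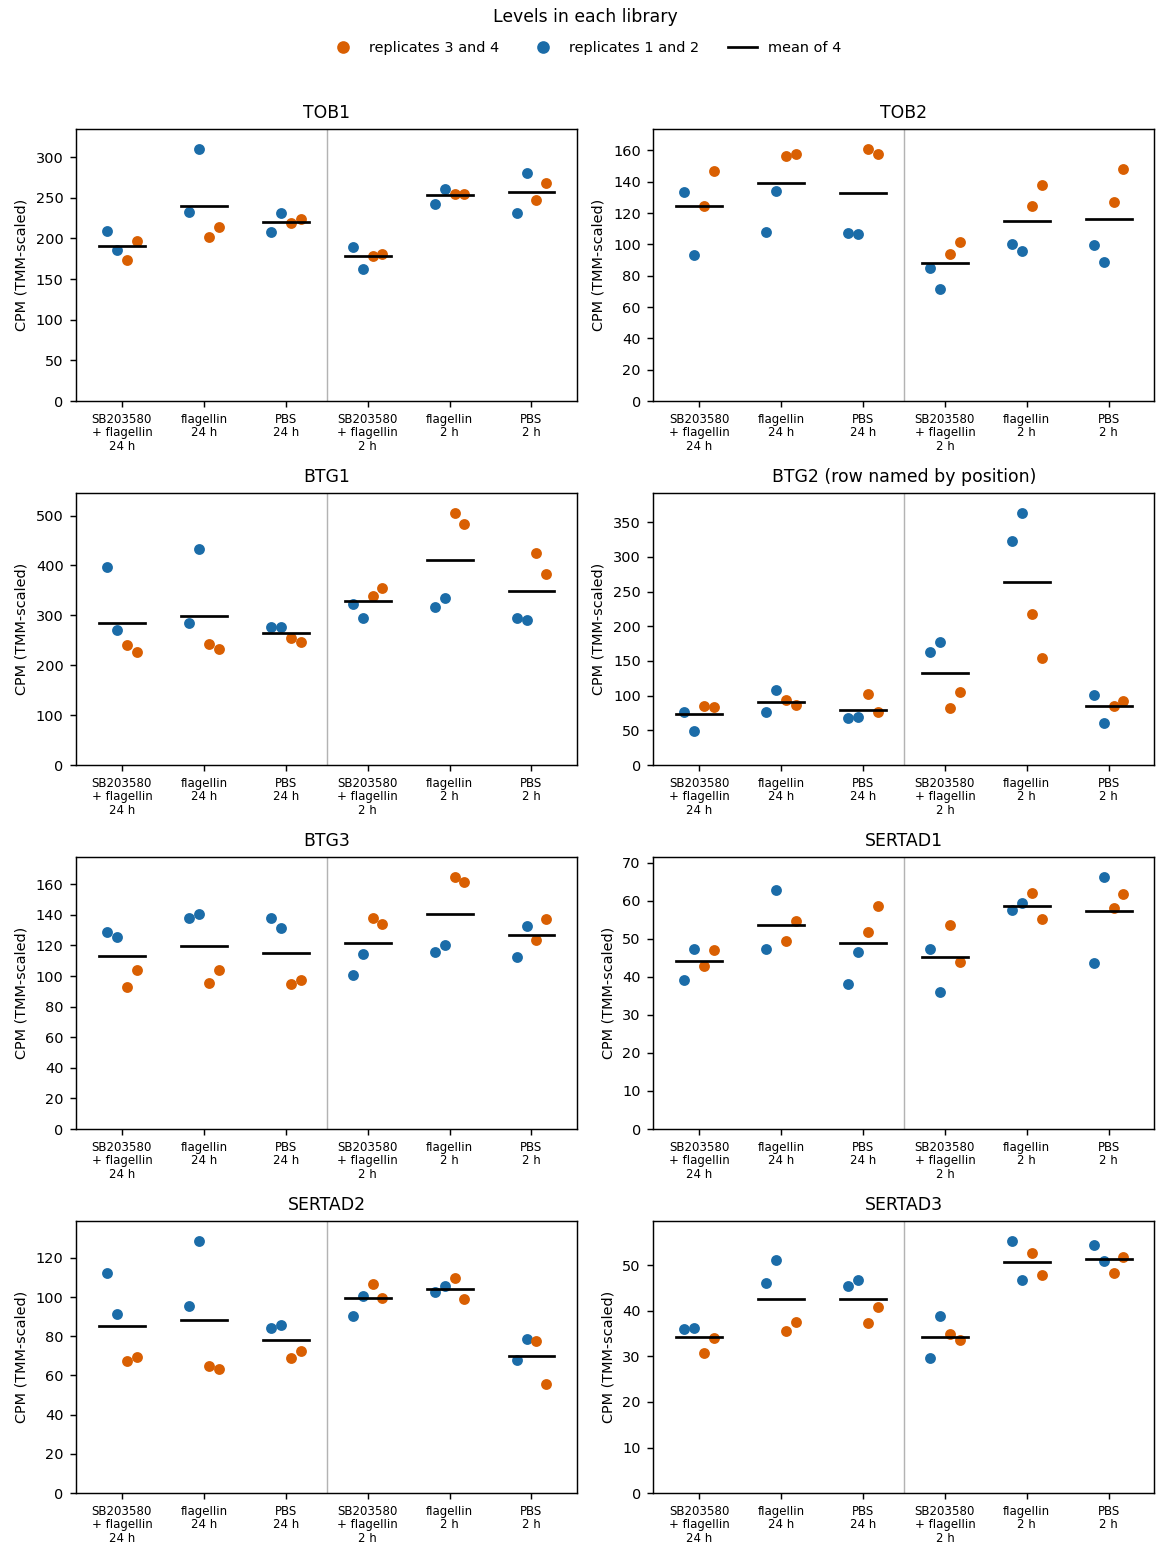
Level of each gene in every library (CPM after TMM scaling, linear axis from 0) in the 6 groups, 24 h on the left and 2 h on the right; orange points are replicates 3 and 4, blue points replicates 1 and 2, and the bar is the mean of 4. At 2 h the SB203580 libraries of TOB1 (162.8 to 189.3 CPM) and SERTAD3 (29.7 to 39.0 CPM) lie under all others, while SERTAD2 is lowest with PBS.

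Over the members together, SB203580 plus flagellin against flagellin at 2 h gave a negative log2 fold change in 7 of 7, with a median of -0.38, against 0.01 over all genes tested. By edgeR, 0 of the 7 passed, where 0.00706% of all genes tested passed (1 gene). At an unadjusted p under 0.05 there were 3 of the 7, and 2.265% of all genes (321 genes). DESeq2 called 2 of the 7, and 13 of all genes. With the replicate number as a block, SERTAD3 was called (log2 fold change -0.57). Flagellin against PBS at 2 h gave a median of 0.03 over the members and 0.00 over all genes, with 4 of the 7 positive. Here 0 of the 7 passed by edgeR, where 0.325% of all genes did (46 genes). At an unadjusted p under 0.05 there was 1 of the 7, and 5.087% of all genes. DESeq2 called 0 of the 7, and 102 of all genes. These comparisons share libraries with the one that chose the members and with each other.

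The calls with SB203580 plus flagellin against PBS at 2 h changed with the libraries used. Without 1 library at a time, TOB1 lost its call in every case, while its log2 fold change stayed between -0.58 and -0.48, and SERTAD3 kept its call only without replicate 2 of SB203580 plus flagellin. Without the 5 libraries that stood apart, TOB1 was at -0.51 and still called, and SERTAD3 was at -0.52 and not called. In replicates 3 and 4 alone, both were called, at -0.51 and -0.54. In replicates 1 and 2 alone neither was called, at -0.55 and -0.62. Nor was either called with the compared groups alone, at -0.53 and -0.59. Of 11 ciliated cell markers, 10 had a negative log2 fold change with SB203580 plus flagellin against PBS at 2 h, with a median of -0.68 and 0 called. Their summed level was 34.6 to 53.1 CPM with SB203580 plus flagellin, 30.4 to 92.7 CPM with flagellin and 31.3 to 81.6 CPM with PBS. Against flagellin at 2 h all 11 were negative, with a median of -0.99 and 0 called (2 at an unadjusted p under 0.05). In bulk RNA fewer cells of a type and less RNA per cell cannot be told apart, and the part of this difference in the members' levels was not tested.

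The 24 h libraries were not used in choosing the members. By edgeR, none of the 7 passed there: SB203580 plus flagellin against PBS called 0 (1 at an unadjusted p under 0.05, 0 by DESeq2), where 0.00706% of all genes were called (603 genes at an unadjusted p under 0.05, 10 by DESeq2). SB203580 plus flagellin against flagellin called 0 members (2 at an unadjusted p under 0.05, 0 by DESeq2), where 0% of all genes were called (405 genes at an unadjusted p under 0.05, 1 by DESeq2). Flagellin against PBS also called 0 members (0 at an unadjusted p under 0.05, 0 by DESeq2) and 0% of all genes (112 at an unadjusted p under 0.05, 1 by DESeq2). Adjusted p was 1.00 for every member in all 3 comparisons.

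TOB1 at 24 h had 209.0, 185.5, 173.7 and 196.7 CPM with SB203580 plus flagellin, 232.9, 309.8, 202.2 and 213.7 CPM with flagellin, and 207.8, 231.0, 218.8 and 223.4 CPM with PBS. The SB203580 libraries were under the flagellin libraries of the same number in 4 of 4 pairs, with overlap between the groups and replicate 2 of flagellin far above the rest. The log2 fold change was -0.33 (95% interval -0.55 to -0.10, adjusted p = 1.00 by edgeR) against flagellin and -0.20 (95% interval -0.43 to 0.02) against PBS. Without the 5 libraries that stood apart, which include that replicate 2, these were -0.23 and -0.25. The SB203580 libraries that then remain at 24 h all belong to the same library set, while flagellin and PBS keep libraries of both sets. Treatment and library set are therefore mixed in these values, which cannot show whether the difference holds without the libraries left out.

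SERTAD3 at 24 h had 36.1, 36.3, 30.9 and 34.0 CPM with SB203580 plus flagellin, 46.2, 51.2, 35.6 and 37.7 CPM with flagellin, and 45.4, 46.7, 37.4 and 40.9 CPM with PBS. All SB203580 libraries lay under all PBS libraries, and each was under the flagellin library of its number. The log2 fold change was -0.31 (95% interval -0.54 to -0.08, adjusted p = 1.00 by edgeR) against PBS and -0.31 (95% interval -0.55 to -0.08, adjusted p = 1.00) against flagellin. SERTAD1 had 39.3, 47.2, 42.8 and 47.0 CPM with SB203580 plus flagellin, 47.2, 62.8, 49.5 and 54.8 CPM with flagellin, and 38.1, 46.6, 51.8 and 58.7 CPM with PBS. Its SB203580 libraries were under all flagellin libraries, although the highest of the first and the lowest of the second both round to 47.2 CPM, with a log2 fold change of -0.28 (95% interval -0.58 to 0.02, adjusted p = 1.00).

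At 24 h the ciliated cell markers had a negative log2 fold change in 11 of 11 with SB203580 plus flagellin against PBS (median -1.15, 0 called, 4 at an unadjusted p under 0.05) and in 9 of 11 against flagellin (median -0.42). Their summed level was 28.5 to 45.5 CPM with SB203580 plus flagellin, 31.1 to 70.1 CPM with flagellin and 47.9 to 79.1 CPM with PBS. Of the 8 club and secretory markers 7 were negative against PBS (median -0.57, 0 called, 1 at an unadjusted p under 0.05), and the median against flagellin was 0.15. The part of both lists in the values of TOB1, SERTAD1 and SERTAD3 was not tested.

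TOB2, BTG1, BTG3 and SERTAD2 overlapped between all treatments at 24 h. SERTAD2 had 112.4, 91.3, 67.2 and 69.3 CPM with SB203580 plus flagellin, 95.7, 128.5, 65.0 and 63.4 CPM with flagellin, and 84.5, 85.6, 69.0 and 72.6 CPM with PBS. The separation from PBS that SERTAD2 showed at 2 h was not there, and the log2 fold change was 0.13 (95% interval -0.27 to 0.52) with SB203580 plus flagellin and 0.18 (95% interval -0.22 to 0.57) with flagellin. BTG2, named by position, had 76.0, 49.7, 84.9 and 83.4 CPM with SB203580 plus flagellin, 76.5, 108.7, 93.6 and 86.6 CPM with flagellin, and 67.8, 68.8, 103.0 and 76.4 CPM with PBS. Its 24 h groups overlapped too, and flagellin differed from PBS by 0.21 (95% interval -0.34 to 0.76). TOB2 had 93.5 to 147.0 CPM with SB203580 plus flagellin, 108.1 to 157.9 CPM with flagellin and 106.4 to 160.7 CPM with PBS. For TOB2, BTG1 and BTG3 the log2 fold changes in the 3 comparisons ran from -0.16 to 0.18.

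**Figure D3:**
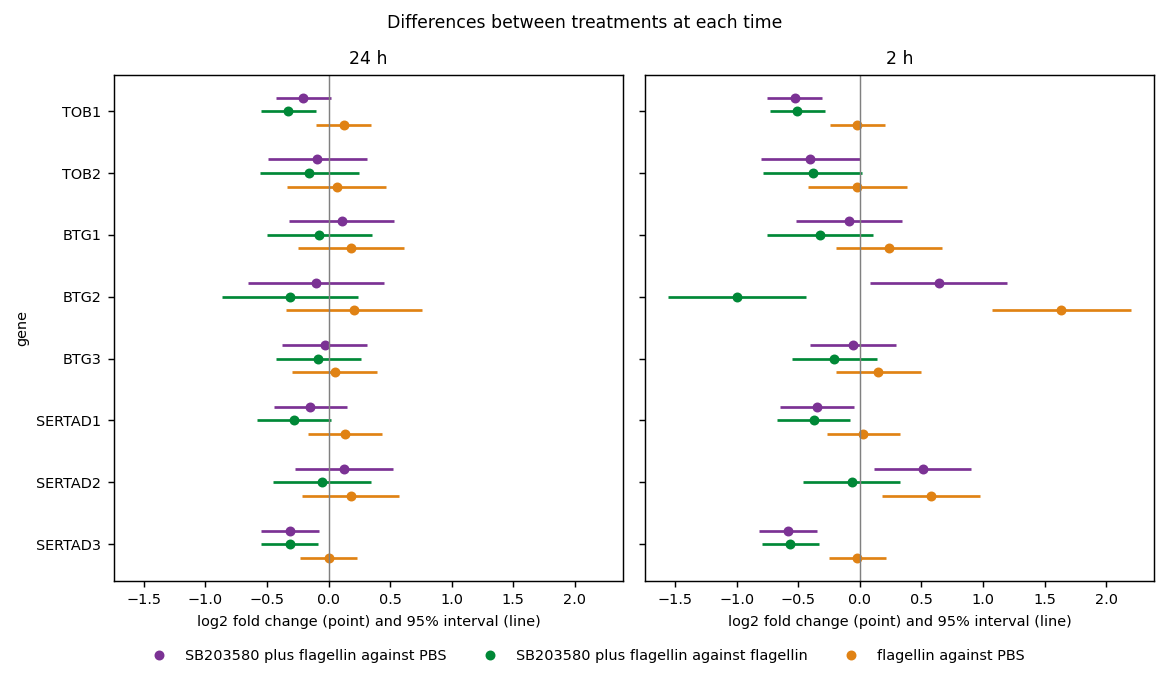
Fitted log2 fold change (point) and 95% interval (line) of each gene at 24 h (left) and 2 h (right) for the 3 pairs of treatments named in the key; BTG2 is named by position. At 2 h both SB203580 comparisons of TOB1 and SERTAD3 lie between -0.51 and -0.58 while flagellin alone is at -0.02, and for SERTAD2 both comparisons against PBS lie above 0.

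Between 2 h and 24 h the members moved differently in the separate library sets. With flagellin, BTG2 (named by position) fell at 24 h, with 76.5 to 108.7 CPM against 153.9 to 362.8 CPM at 2 h (log2 fold change -1.53, SE 0.269, adjusted p = 0.00145 by edgeR), lower in 4 of 4 pairs. With SB203580 plus flagellin it had 49.7 to 84.9 CPM at 24 h against 82.3 to 177.7 CPM at 2 h (log2 fold change -0.85, SE 0.265). That difference was not called by edgeR, but was called by DESeq2 (-0.85), with the replicate number as a block (-0.82) and with the library set fitted at each time (-0.81). It was -0.17 and not called in replicates 3 and 4 alone, and -1.43 and called in replicates 1 and 2 alone. None of the 7 other members passed with flagellin at 24 h against 2 h (2 at an unadjusted p under 0.05, 0 by DESeq2), where 7.90% of all genes tested did. The share of all genes at an unadjusted p under 0.05 was 21.63%, and DESeq2 called 1611 genes. BTG1 was at -0.46 (SE 0.204, adjusted p = 0.193) and SERTAD3 at -0.25 (SE 0.110, adjusted p = 0.190). With the replicate number as a block TOB2 was called, at 0.29 (adjusted p = 0.0495), and without replicate 2 of flagellin at 24 h BTG1 was called, at -0.68 (adjusted p = 0.0377). Without the 5 libraries that stood apart BTG1, SERTAD2 and SERTAD3 were called, at -0.69, -0.48 and -0.35.

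With SB203580 plus flagellin at 24 h against 2 h, 0 of the 7 passed (1 at an unadjusted p under 0.05, 0 by DESeq2), where 6.88% of all genes did, and with PBS 0 of the 7 passed (2 at an unadjusted p under 0.05, 0 by DESeq2), where 10.2% did. The shares of all genes at an unadjusted p under 0.05 were 20.34% and 24.38%, and DESeq2 called 1471 and 1982 genes. TOB2 was above its 2 h library in 4 of 4 pairs of each treatment, at a log2 fold change of 0.50 (SE 0.192) with SB203580 plus flagellin, 0.28 (SE 0.191) with flagellin and 0.19 (SE 0.191) with PBS. With the replicate number as a block, TOB2 was called with SB203580 plus flagellin (0.50). In PBS cultures, TOB1, BTG1 and SERTAD3 had all 24 h libraries under all 2 h libraries, at -0.22 (SE 0.106), -0.40 (SE 0.204) and -0.27 (SE 0.110), and SERTAD3 was called with the block (-0.28).

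Averaged over the 6 groups, replicates 3 and 4 differed from replicates 1 and 2 in 3 of the 7 members, where 63.1% of all genes tested differed, so the members changed no more often than the genes at large. TOB2 was higher in replicates 3 and 4 in all 6 groups (log2 difference 0.42, SE 0.0603, adjusted p = 5.43e-06 by edgeR). SERTAD2 was lower in 4 of 6 groups (-0.28, SE 0.0897, adjusted p = 0.0109) and SERTAD3 in 5 of 6 (-0.15, SE 0.0539, adjusted p = 0.0197). The call of SERTAD3 was lost with no count filter (-0.13, adjusted p = 0.0618) and without replicate 3 of SB203580 plus flagellin at 24 h (-0.13, adjusted p = 0.0541). Without the 5 libraries that stood apart, SERTAD2 was no longer called (-0.16) and SERTAD1 was (0.27). The labels do not say what separates the sets.

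The change from 2 h to 24 h itself differed between the sets for BTG1, BTG3 and SERTAD2, 3 of the 7, a comparison added after the data had been seen, in which 35.0% of all genes tested were called. That share is near the one among the members. BTG3 had 93.1 to 104.2 CPM at 24 h against 123.9 to 164.6 CPM at 2 h in replicates 3 and 4 (n = 6 each), and 125.5 to 140.6 CPM at 24 h against 100.6 to 132.7 CPM at 2 h in replicates 1 and 2. The libraries of replicates 3 and 4 did not overlap between the times, and the other set lay the opposite way with overlap. The log2 change was -0.54 (SE 0.0606) in replicates 3 and 4 and 0.20 (SE 0.0605) in replicates 1 and 2, a difference of -0.75 (SE 0.0856, adjusted p = 2.40e-06 by edgeR).

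BTG1 had 226.5 to 254.7 CPM at 24 h against 339.7 to 504.5 CPM at 2 h in replicates 3 and 4, and 270.7 to 432.1 CPM at 24 h against 291.4 to 335.6 CPM at 2 h in replicates 1 and 2. Only replicates 3 and 4 were apart by time, and the log2 change was -0.77 (SE 0.104) there and 0.06 (SE 0.104) in replicates 1 and 2, a difference of -0.83 (SE 0.147, adjusted p = 0.000214 by edgeR). For SERTAD2 the change was -0.40 (SE 0.0945) in replicates 3 and 4 and 0.14 (SE 0.0943) in replicates 1 and 2, a difference of -0.54 (SE 0.134, adjusted p = 0.00351 by edgeR). BTG2, named by position, went the other way, at -0.41 (SE 0.177) in replicates 3 and 4 and -1.21 (SE 0.179) in replicates 1 and 2 (difference 0.80, SE 0.251, adjusted p = 0.0182 by edgeR). TOB2 was higher at 24 h by 0.31 (SE 0.0846) in replicates 3 and 4 and 0.34 (SE 0.0849) in replicates 1 and 2. For SERTAD1 the change was -0.13 in both sets. Without the 5 libraries that stood apart the differences of BTG1, BTG3 and SERTAD2 were -0.64, -0.81 and -0.39, all still called.

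**Figure D4:**
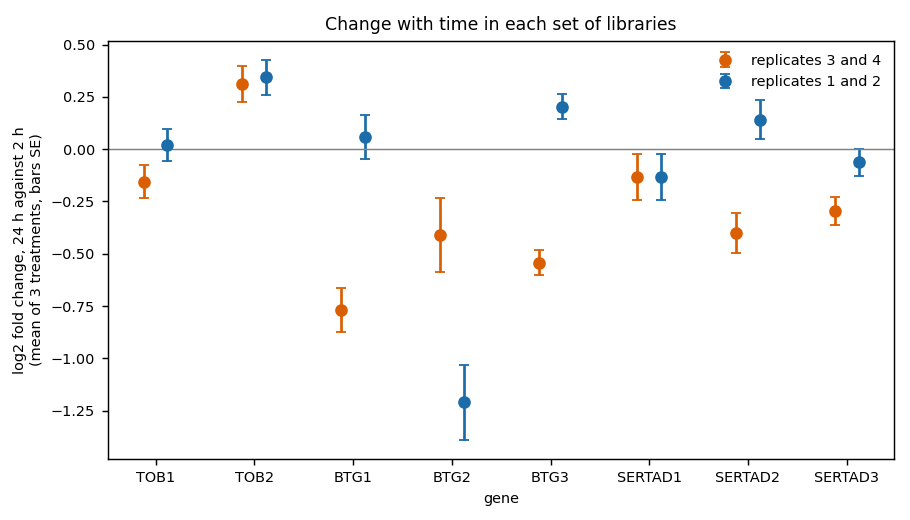
Log2 fold change at 24 h against 2 h, averaged over the 3 treatments, with its SE, in replicates 3 and 4 (orange) and replicates 1 and 2 (blue); BTG2 is named by position. BTG1, BTG3 and SERTAD2 are under 0 in replicates 3 and 4 and at or above 0 in replicates 1 and 2, and TOB2 is above 0 in both sets.

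Across the 24 libraries, with the mean of each set subtracted, some members varied alike. These correlations are descriptions over libraries that share treatments. TOB1 and SERTAD1 had a Pearson r of 0.84 over the 16 libraries without SB203580 and 0.29 over the 8 with it. TOB1 and SERTAD3 had 0.66 over the 16 and -0.14 over the 8; all 8 SB203580 libraries were below 0 for TOB1 on this scale. BTG1 and BTG3 had an r of 0.77 and a Spearman rho of 0.72 over all 24, and 0.64 without the 2 libraries farthest from the median of BTG1. SERTAD2 had an r of 0.65 with BTG1 over all 24, 0.67 over the 16 and 0.82 over the 8. With SERTAD3 it had 0.01 over all 24, but 0.29 over the 16 and 0.44 over the 8. TOB2 had 0.49 with TOB1 over all 24, but -0.13 over the 16 without SB203580 and 0.77 over the 8 with it. With the BTG and SERTAD genes TOB2 had -0.25 to 0.22 over all 24. Within each part all these values were negative, from -0.51 (SERTAD3) to -0.05 over the 16 and from -0.50 (BTG2, named by position) to -0.05 over the 8.

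Of 11849 tested genes with a symbol, those most like TOB1 over the 24 libraries were ARF6 (r = 0.83), WDR20 (0.82) and WEE1 (0.81), and those most like SERTAD3 were TLNRD1 (0.81), CCDC59 (0.78) and TOE1 (0.78). For SERTAD1 they were CRKL (0.80), JAG2 (0.79) and GDNF (0.75). For TOB2 they were PHF13 (0.87), MID1IP1 (0.85) and BCL6 (0.84). BTG1 was most like EIF4A1 (0.93), KLF10 (0.92) and NOCT (0.92), BTG3 most like CRY2 (0.92), ETV3 (0.91) and NDUFB9 (0.91), and SERTAD2 most like ELL (0.89), N4BP1 (0.86) and NFKB2 (0.85). BTG2, named by position, was most like PNRC1 (0.91), NUAK2 (0.86) and SPATA2 (0.86). These are the highest of many values, and the points share treatment, time and depth.

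**Figure D5:**
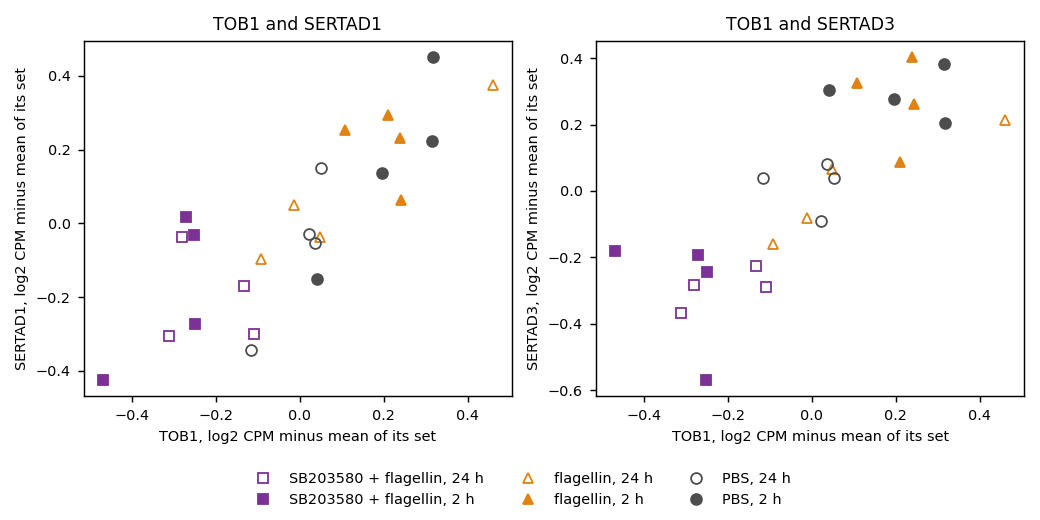
Log2 CPM of SERTAD1 (left) and SERTAD3 (right) against TOB1 in 24 libraries, each minus the mean of its library set; squares are SB203580 plus flagellin, triangles flagellin and circles PBS, open at 24 h and filled at 2 h. All 8 SB203580 libraries lie below 0 for TOB1, and over the other 16 the Pearson r with TOB1 is 0.84 for SERTAD1 and 0.66 for SERTAD3.

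Genes that work with the members were read from 8 lists, chosen with earlier results of these data known. None of their genes was called between treatments at either time by edgeR, and over these and 8 marker lists together, 147 genes tested, 0 were called in each of the 6 treatment comparisons (0 to 14 at an unadjusted p under 0.05, 0 to 1 by DESeq2). The CCR4-NOT subunits, the deadenylase partners of TOB and BTG proteins, stood near the median of all genes with SB203580 plus flagellin against PBS at 2 h: the median log2 fold change of 11 was -0.06, against 0.01 over all genes, with CNOT2 at -0.27 (SE 0.326) and CNOT7, a deadenylase, at -0.21 (SE 0.0766). Of 12 other cytoplasmic mRNA decay factors the median was -0.03, with the decapping factor DCP1A at -0.23 (SE 0.137). The 8 tested binding partners had a median of -0.02, with SMAD5 at -0.28 (SE 0.101) and SMAD4 at -0.23 (SE 0.0814), both TGF-beta family signal carriers. The other SERTA genes, SERTAD4 and CDCA4, were at 0.24 (SE 0.185) and -0.16 (SE 0.307).

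The cell cycle lists lay under 0 in that comparison without a called gene. The median was -0.17 over 18 G1 cyclins, kinases, pocket proteins and E2F factors, with the G1 cyclins CCNE2 at -0.48 (SE 0.279) and CCNE1 at -0.45 (SE 0.148). It was -0.37 over 7 inhibitors of cyclin-dependent kinases, all 7 negative, with CDKN1C at -0.42 (SE 0.263) and CDKN2C at -0.40 (SE 0.472). All 20 proliferation genes tested were negative, with a median of -0.29 and with the mitotic cyclin CCNB1 at -0.60 (SE 0.758); their summed level was 308.6 to 494.7 CPM with SB203580 plus flagellin, 314.4 to 531.8 CPM with flagellin and 333.6 to 591.3 CPM with PBS at 2 h, so the groups overlapped. Proliferation genes were instead apart between the sets, where 18 of 20 were lower in replicates 3 and 4 (median -1.26), a comparison in which 63.1% of all genes tested were called and 4558 of 14172 were lower.

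Immediate early genes, which are transcribed within minutes of a stimulus, had a median of -0.05 at 2 h with SB203580 plus flagellin against PBS, over 20 genes; it was -0.48 when the SB203580 group was set against flagellin, and 0.36 for flagellin against PBS. Between the times 5 of 20 were lower at 24 h with SB203580 plus flagellin, 8 of 20 with flagellin and 6 of 20 with PBS, and 0 were higher in any of them; 6.88%, 7.90% and 10.2% of all genes tested were called in these comparisons, in either direction. The change with time differed between the library sets in 11 of the 20, with a median difference of -0.62, where 35.0% of all genes tested differed. The nuclear receptor NR4A1 fell in these 3 treatments, with log2 fold changes of -2.32, -2.86 and -2.06 (adjusted p = 0.000814, 9.42e-05 and 0.00147 by edgeR). ATF3, a stress-induced factor, fell too, at -1.27, -1.45 and -1.29 (adjusted p = 8.76e-05, 1.21e-05 and 5.51e-05). The other called immediate early genes are not named here. In the rest of the 8 lists, PARN (0.74, SE 0.148), EDC3 (-0.69, SE 0.206) and CDKN2D (0.97, SE 0.267) were called between the times with SB203580 plus flagellin. With flagellin CDK4 (-0.31, SE 0.0810) and SMAD4 (-0.33, SE 0.0814) were called. With PBS these were EDC3, CDK4, TYMS, SMAD4, SMAD5 and SERTAD4, from -0.71 for SERTAD4 to -0.29 for CDK4. Of the marker lists at 2 h, the medians with SB203580 plus flagellin against PBS were -0.68 (ciliated), 0.00 (club and secretory), 0.12 (basal), 0.13 (squamous), 0.03 (epithelial), -0.16 (fibroblast and smooth muscle), -0.01 (endothelial) and 0.38 (immune), over 11, 8, 6, 4, 6, 7, 2 and 5 tested genes, each with 0 called.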

How the data were processed

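RNA was sequenced as paired ends, per the labels. The authors deposited whole-number counts of reads per gene, summed over exons and not normalized. STAR 2.4.0a, featureCounts, Subread 1.4.6-p1 and the mouse build GRCm38 are named in the submitters' processing notes; per the file headers the counts are for pig genes, and the sources used here give neither the pig assembly nor the strand setting. Bacterial and spike-in rows, 5988 of 31868 with 0.00131% of counts, were left out. Levels are CPM or FPKM computed from the counts, and a floor of 3 counts was 0.0827 to 0.114 CPM per library, for counting error only. Library scaling factors (TMM) were 0.836 to 1.07.

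Tests used edgeR 4.0.16 (R 4.3.3): quasi-likelihood F test, robust, filterByExpr, all 24 libraries, 1 term per group, 18 residual degrees of freedom, two-sided. P-values were adjusted by the Benjamini-Hochberg method across the 14172 genes tested, and an adjusted value under 0.05 is a call. Log2 CPM used a prior count of 2, and an SE is the absolute log2 fold change over the square root of F. Set comparisons added a term for replicates 3 and 4 against 1 and 2, and, for the change with time, the set's interaction with time. DESeq2 1.42.0 and other alternatives were run, and the fits were tested on simulated data. The members and lists were chosen with earlier results of these data known. All 8 members are named. List genes named are those called or, with none, the largest absolute changes. This rule was not kept for the marker lists and the set comparisons, and of the called immediate early genes only NR4A1 and ATF3 are named.

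Same-numbered libraries deviated together from their group means in all 36 pairs (correlation 0.211 to 0.797), and 21 of 36 correlated best with their own number. Same-numbered libraries always lie in the same library set, and the difference between the sets alone would make them correlate. These correlations therefore cannot show whether the numbers pair the samples, and comparisons by number are a description. The chi-square per gene between replicates was 10.3 to 392.7, so none was counted as a duplicate. BTG2 was named by an overlap of at least 0.5 with 1 RefSeq gene (Sscrofa11.1 table).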

Additional observations from a re-analysis of the deposited data

Results flagged for a closer look

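The change from 2 h to 24 h differed between replicates 3 and 4 and replicates 1 and 2 in 4 rows, by a test of the difference itself over the 3 treatments, with 6 libraries of each set at each time. The log2 difference was -0.83 for BTG1, -0.75 for BTG3, -0.54 for SERTAD2 and 0.80 for BTG2 (named by position), with adjusted p-values of 0.000214, 2.40e-06, 0.00351 and 0.0182 by edgeR. In 35.0% of all genes tested the same difference was called. A comparison of each group's highest and lowest library with its other libraries, over 48 groups of 4, singled out 0 libraries, where chance gives about 1 in 20. Each group joins libraries of both sets, and a gap between the sets can hide an odd library. The result therefore does not show that no library stood apart.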

How the results depend on the processing

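The replicate block changed no call of the 7 members other than these: members called were 1 instead of 0 with SB203580 plus flagellin against flagellin at 2 h, and 1 instead of 0 in each comparison of 24 h with 2 h. Over all genes the block called 114 instead of 26 with SB203580 plus flagellin against PBS at 2 h, 151 instead of 46 with flagellin against PBS at 2 h, 5 instead of 1 with SB203580 plus flagellin against flagellin at 2 h, 9 instead of 1 with SB203580 plus flagellin against PBS at 24 h, and 2422, 2664 and 3183 instead of 975, 1120 and 1440 between the times with SB203580 plus flagellin, flagellin and PBS. For SB203580 plus flagellin against PBS at 2 h (2 called), the count was 1 with no count filter, 0 with the compared groups alone, 0 in replicates 1 and 2 alone, 0 to 1 without 1 library at a time, and 1 without the 5 libraries that stood apart. Over all genes these fits called 21, 6, 14, 10 to 25, and 21, in that order. With the library set fitted separately at 2 h and 24 h, and in replicates 3 and 4 alone, SERTAD2 was called beside TOB1 and SERTAD3 with SB203580 plus flagellin against PBS at 2 h (3 members). That set fit called 1 member with flagellin against PBS at 2 h (318 of all genes). With SB203580 plus flagellin against flagellin at 2 h it called 2 (53 of all genes). Between the times it called 1, 4 and 2 with SB203580 plus flagellin, flagellin and PBS, where 3838, 4095 and 4700 of all genes were called. Replicates 3 and 4 alone called 1 and 3 in those treatment comparisons (198 and 93 of all genes). Between the times they called 4, 5 and 3 (3440, 3860 and 3478 of all genes). DESeq2 called 2 with SB203580 plus flagellin against flagellin at 2 h (13 of all genes). Without the 5 libraries the count was 1 with SB203580 plus flagellin against flagellin at 2 h (3 of all genes). Between the times the counts were then 1 with SB203580 plus flagellin (832 of all genes) and 3 with flagellin (1563 of all genes). Of SB203580 plus flagellin at 24 h only replicates 3 and 4 then remain, so time and library set cannot be told apart there. Without 1 library at a time the count with flagellin between the times was 0 to 1 (1029 of all genes where it was 1). The cause was not tested. No called value changed sign, and 130 of 1664 single values did, the largest of them 0.46 in size. BTG2's difference with flagellin at 2 h lost its call with the groups alone. SERTAD3's difference in the change with time was called with RLE scaling (-0.24, adjusted p = 0.0491). The blocked fit of the set comparisons could not be made, because numbers lie within sets; DESeq2 was not run for the change with time by set.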
